A study of Homo sapiens with 12 samples.

Results

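The dabrafenib response of the resistant melanoma line A375-BIR was taken from 6 of the 12 libraries, 3 kept for 48 h in 200 nM dabrafenib and 3 in 0.1% DMSO. They were chosen by line and treatment alone. The other 6 libraries, of the parental line A375, share the fit and serve for the difference between the lines. All 1881 listed miRNA precursors were considered, and 175 had enough counts to be tested. The study made A375-BIR by growing A375 in rising amounts of dabrafenib over several weeks and then sequenced small RNA of both lines with and without the drug. A single line selected in culture stands for itself and not for resistance in patients.

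Dabrafenib blocks mutant BRAF, the kinase that keeps the MAPK pathway of many melanomas active. Resistant cells often restore ERK signaling by another route, so the inhibitor may still shift transcription while proliferation goes on. miRNA genes are transcribed by RNA polymerase II and several are direct targets of the factors that ERK controls. The genes transcribed downstream of ERK include the miR-221 and miR-222 cluster and MIR31, which act on cell cycle inhibitors and on invasion. ERK activity itself was not measured in these data.

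The labels were checked against miRNAs of known cell types. Of 18 miRNAs of the melanocytic lineage, 9 had a count in A375-BIR, with sums of 1123, 1208 and 1618 CPM (counts scaled to a common library size with TMM factors) in DMSO and 2103, 1715 and 2710 CPM in dabrafenib. MIR146A gave most of it, so the check rests mainly on that precursor. It is also a target of NF-kB and does not by itself mark the lineage. MIR211, which follows MITF in melanocytes, had only 1, 3 and 4 counts in DMSO and 3, 4 and 4 in dabrafenib. MIR506, MIR507, MIR510, MIR513B, MIR513C, MIR514A1, MIR514A2, MIR514A3 and MIR514B were at 0. Markers of blood, muscle, liver, epithelium and endothelium were scarce, while the sums for neural cells and for smooth muscle and fibroblasts were larger in most libraries. Blood cell markers (3 of 6 with a count, MIR142 first, MIR451A, MIR486-1 and MIR486-2 at 0) summed to 0, 2 and 3 counts in DMSO and 1, 6.5 and 8 in dabrafenib, or 0, 15.7 and 20.7 CPM against 27.3, 97.8 and 162 CPM. Muscle markers (4 of 6, MIR1-2 first, MIR133B and MIR206 at 0) gave 0, 3 and 2 against 2.22, 1 and 1 counts (0, 23.5 and 13.8 against 60.6, 15 and 20.2 CPM), and liver's MIR122 had 0 in all 6 libraries. Epithelial markers (5 of 7, MIR205 first, MIR429 and MIR203A at 0) gave 8, 9 and 12 against 3, 1 and 13 counts (72.5, 70.6 and 83.0 against 81.9, 15 and 263 CPM), and endothelial MIR126 gave 5, 4 and 9 against 2, 0 and 0 counts (45.3, 31.4 and 62.2 against 54.6, 0 and 0 CPM). Neural markers (3 of 6, MIR9-1 first, MIR124-1, MIR124-2 and MIR124-3 at 0) gave 16, 27 and 9 counts in DMSO and 9.99, 15 and 17.0 in dabrafenib, or 145, 212 and 62.2 CPM against 272.8, 226 and 344 CPM. In CPM the blood and neural sums were thus higher in each treated library than in each control. The pair for smooth muscle and fibroblasts, MIR143 and MIR145, summed to 240, 243 and 214 CPM in DMSO and 601, 707 and 1072 CPM in dabrafenib, most of it MIR143. Whether any of these counts came from other cells, and their part in the result, was not tested.

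The treated libraries were smaller. Library totals were 106427, 120625 and 122792 counts in DMSO and 35070, 59899 and 47607 in dabrafenib, 2.45 times fewer on average, so that 3 counts correspond to 20.7 to 81.9 CPM. Depth therefore moved with treatment, as did the share of rRNA-like sequence given below, and their part in the result was not tested. The 10 most abundant precursors held 62.4% to 70.0% of each library. The labels call the replicates biological. Unless another fit is named, the p-values below rest on a spread estimated from all 12 libraries of both lines. They do not measure the spread between independently selected resistant lines. DMSO replicate 3 stood apart from the other DMSO libraries: its log CPM correlated with theirs at 0.968 and 0.970, against 0.990 between those, and its chi-square per degree of freedom against them was 29.4 and 32.1, against 2.50. The treated libraries also differed among themselves: dabrafenib replicate 1 correlated at 0.954 and 0.924 with the other treated libraries, against 0.967 between those, with chi-square per degree of freedom from 6.29 to 14.2. Without DMSO replicate 3, 29 precursors were higher and 17 lower in dabrafenib, where the fit of all 12 libraries of both lines gave 23 and 13.

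The mature miRNAs of the precursors named most below are given here from RefSeq (GRCh38.p14), which has a mature sequence for 28 of the 36 precursors that passed the test. Capitals mark the seed, bases 2 to 8, which sets most of the targets of a miRNA. miR-221 and miR-222 share the seed GCUACAU, miR-146a and miR-146b share GAGAACU, and let-7b and let-7c share GAGGUAG.
miR-31-5p: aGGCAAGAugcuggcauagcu
miR-221-3p: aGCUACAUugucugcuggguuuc
miR-222-3p: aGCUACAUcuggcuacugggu
miR-7-5p: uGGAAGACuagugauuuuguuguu
miR-15b-5p: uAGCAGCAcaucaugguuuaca
miR-196a-5p: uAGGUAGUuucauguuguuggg
miR-24-3p: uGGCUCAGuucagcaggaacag
miR-584-5p: uUAUGGUUugccugggacugag
miR-296-5p: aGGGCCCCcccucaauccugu
miR-27b-3p: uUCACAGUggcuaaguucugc
miR-143-3p: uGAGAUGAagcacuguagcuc
miR-155-5p: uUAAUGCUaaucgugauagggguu
miR-4449: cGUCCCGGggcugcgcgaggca
miR-3652: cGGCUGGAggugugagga
miR-1291: uGGCCCUGacugaagaccagcagu
miR-146a-5p: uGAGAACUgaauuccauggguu
miR-146b-5p: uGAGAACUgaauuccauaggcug
let-7b-5p: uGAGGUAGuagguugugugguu
let-7c-5p: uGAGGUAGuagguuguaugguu

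Resistant cells in dabrafenib still differed from those in DMSO, in libraries that also differed in depth and in rRNA-like share. Of 175 tested precursors, 23 were higher (13.1%) and 13 lower (7.43%) in dabrafenib by the quasi-likelihood test of edgeR at an adjusted p (Benjamini-Hochberg) of 0.05, and 62 had an unadjusted p under 0.05. Of the 23, 9 resemble ribosomal RNA and are reported apart, which leaves 14 higher and 13 lower among 165 other precursors. The groups did not overlap for 64 of the 175 (36.6%), among them 35 of the 36 that passed, MIR155 being the exception. The median log2 fold change was -0.04 over all tested precursors and -0.06 over the 165. With DESeq2's size factors the counts were 23 higher and 20 lower, and with rRNA-like sequences removed before scaling they were 15 and 17, with 26 of the 27 still past the threshold and 6 others added. The median G and C content was 60.0% for the precursors that rose, 50.9% for those that fell and 53% for all 165. Of those that rose, 7 of 14 lie in an exon of a host gene, against 4 of 13 that fell and 61 of 165 tested. These differences were not tested. The set that rose holds MIR4657, MIR4647, MIR1225, MIR150 and MIR632, which entered the fit through dabrafenib libraries alone, so no trait of the response is read from it.

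Many calls leaned on single libraries, those for lower precursors more than those for higher ones in most A375-BIR leave-outs but not in all. Without DMSO replicate 1 only 2 precursors were lower, and 11 of the 13 missed the threshold at adjusted p of 0.0521 to 0.302. The number lower was 6 without DMSO replicate 2, 14 without dabrafenib replicate 1, 5 without dabrafenib replicate 2 and 7 without dabrafenib replicate 3, while the number higher in these 5 fits was 18, 16, 16, 20 and 22. The numbers higher include rRNA-like sequences. Of the 14 higher calls that are not rRNA-like, these 5 fits lost 5, 6, 6, 4 and 2. Of the 13 lower calls they lost 11, 7, 4, 8 and 7. Without DMSO replicate 3 the losses were 3 of the 14 and 0 of the 13. A fit of the 6 A375-BIR libraries alone called 18 higher, rRNA-like sequences included, and 1 lower, MIR31, with the direction kept for 13 of 13. MIR4657, MIR3654, MIR27B, MIR1291 and MIR155 were not called higher there. Over 21 or fewer alternatives for each of the 27, 6 precursors passed every time: MIR31, MIR1225, MIR143, MIR3652, MIR4449 and MIR612. MIR1225 has few counts and was admitted by the filter through dabrafenib libraries alone. No direction changed among the 27.

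**Figure D1:**
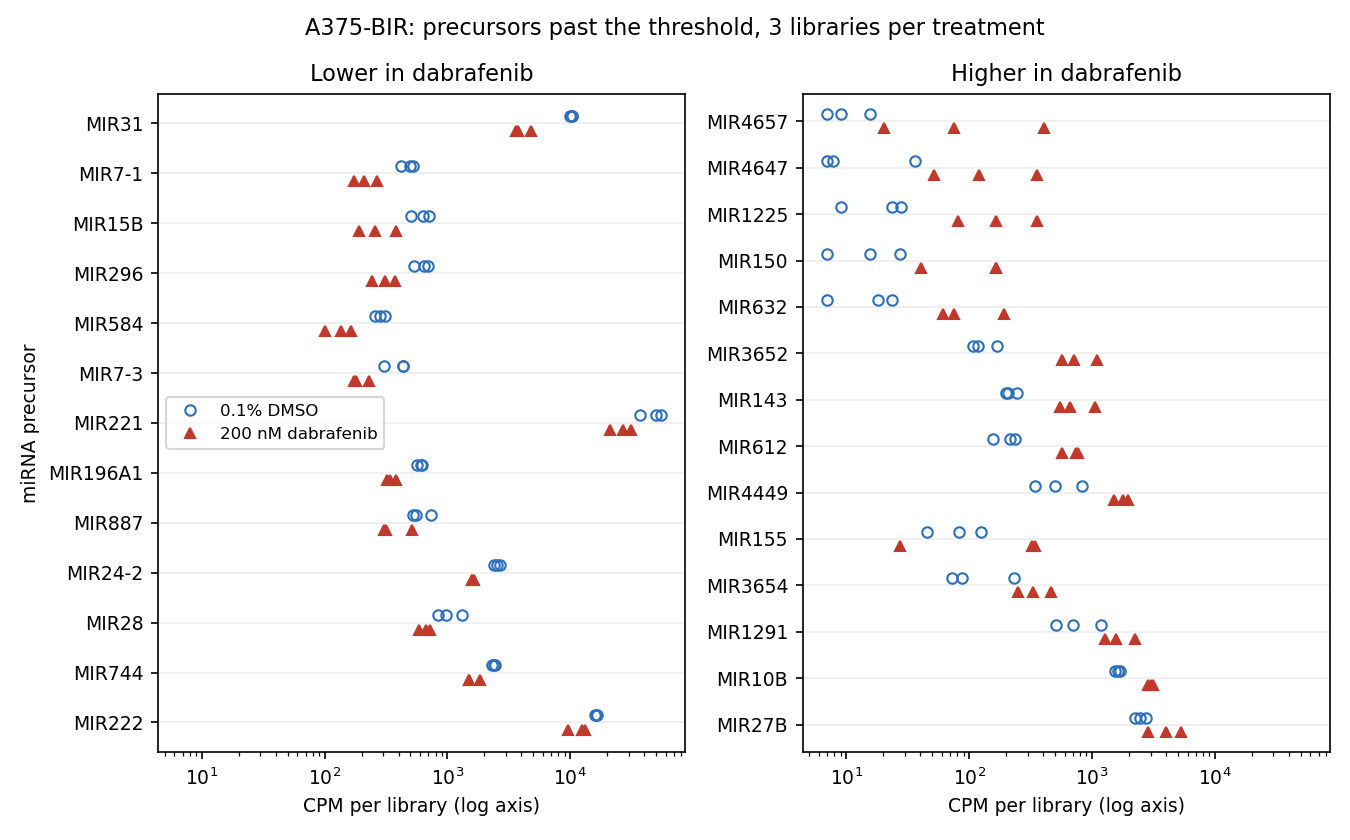
Level of each precursor that passed edgeR's test in A375-BIR, rRNA-like sequences left out, in each of the 6 libraries. Some DMSO values of the scarce precursors on the right rest on 1 to 4 counts.

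**Figure D2:**
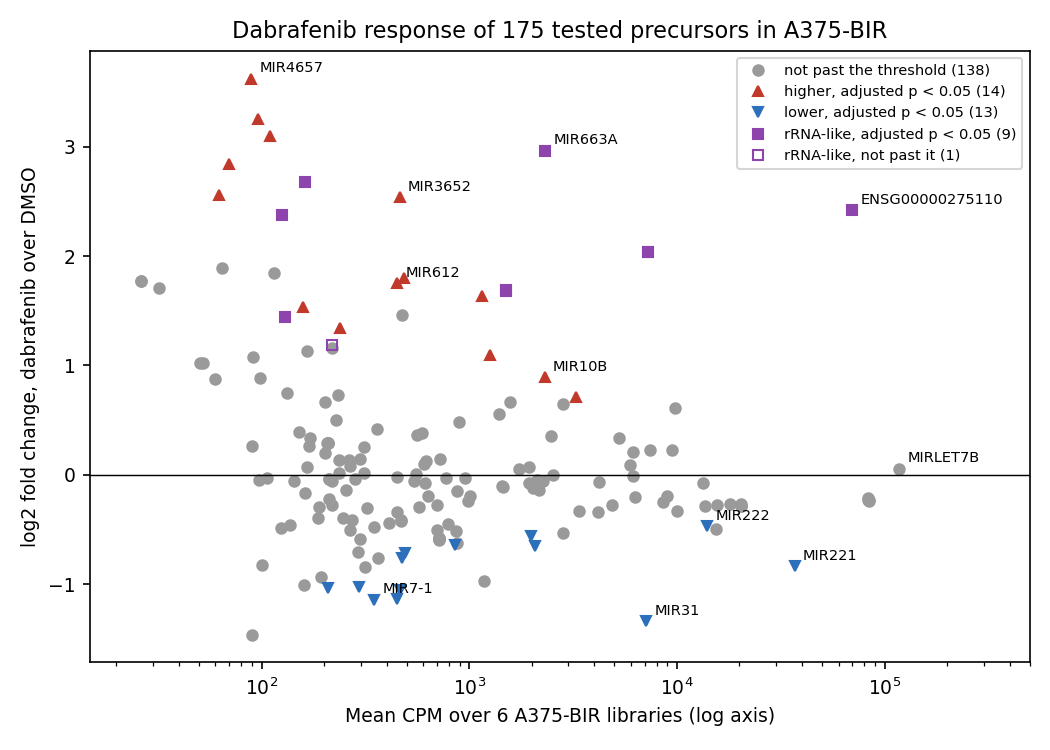
Log2 fold change in dabrafenib against mean level for the 175 tested precursors in A375-BIR. rRNA-like sequences are drawn as squares.

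The results begin with MIR31 and the miR-221 and miR-222 cluster. MIR31 lies in an intron of MIR31HG next to the CDKN2A locus and has been described as an ERK-responsive regulator of invasion. miR-221 and miR-222 come from a single transcript, repress the cell cycle inhibitor CDKN1B and the receptor KIT, and promote melanoma growth. Their transcription depends on MAPK signaling in several tumor types. All 3 are abundant in A375-BIR, so counting error is small.

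MIR31 (ENSG00000199177.1, chr9:21512115-21512185, hg38, GENCODE v44) stood at 10246, 10415 and 10032 CPM in DMSO and at 3605, 4768 and 3722 CPM in dabrafenib. All 3 treated libraries lay below all 3 controls, with little spread on either side. The level fell 2.53-fold (log2 -1.34, SE 0.16, edgeR adjusted p = 3.38e-05), and among the 13 that fell it was the only one to pass under each of the alternatives. In A375 the log2 change was -0.74 (edgeR adjusted p = 0.0736), and the difference between the lines did not pass either (-0.60, edgeR adjusted p = 0.422). The response of MIR31 in resistant cells was thus strong, without evidence that it exceeded that of the parental cells.

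MIR221 (ENSG00000207870.1, chrX:45746157-45746266) had 55021, 50098 and 36634 CPM in DMSO and 21035, 27093 and 31252 CPM in dabrafenib. The lowest control, replicate 3, was still above the highest treated library. It fell 1.79-fold (log2 -0.84, SE 0.19, edgeR adjusted p = 0.00661). MIR222 (ENSG00000207725.3, chrX:45747015-45747124), from the same transcript, was at 16233, 16587 and 15961 CPM in DMSO and 13219, 12484 and 9587 CPM in dabrafenib. Its groups did not overlap, and the fall was smaller at 1.38-fold (log2 -0.47, SE 0.14, edgeR adjusted p = 0.0314). Without DMSO replicate 1, MIR221 (edgeR adjusted p = 0.0879) and MIR222 (0.100) missed the threshold, as did MIR222 without DMSO replicate 2 (0.0930), dabrafenib replicate 2 (0.0643) or dabrafenib replicate 3 (0.0847), or with the replicate block (0.0598). In the 6 A375-BIR libraries alone both missed it (0.0801 and 0.0851). Both also fell in A375, by log2 -0.61 and -0.67 (edgeR adjusted p = 0.0283 and 0.00378).

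Summed as a cluster, miR-221 and miR-222 gave 85352, 76082 and 46108 CPM in DMSO and 28438, 34491 and 38768 CPM in dabrafenib, on the scale of a separate fit of 116 family sums and single precursors. No treated library reached the lowest control. The sum fell 2.04-fold (log2 -1.03, SE 0.22, edgeR adjusted p = 0.00246). That fit places the median of its entries at -0.26, against -0.03 with the library sizes of the precursor fit, a shift of 0.24, and the cluster passed with those sizes too (log2 -0.73, edgeR adjusted p = 0.00276). Among 15 miRNAs described as driven by MAPK or MYC, 11 were tested and 3 were lower, these 3, while none was higher, beside 13 lower and 23 higher of all 175. Their median log2 change was -0.29 with 10 of 11 negative, beside -0.04 with 96 of 175 negative over all tested precursors. The list was chosen with earlier results of these data known and holds these 3. Members made from 1 transcript, such as MIR221 and MIR222, are not independent. The tally is therefore no test of MAPK control. The list summed to 125281, 121362 and 98818 CPM in DMSO and 69827, 80881 and 86224 CPM in dabrafenib, with MIR221 the most abundant.

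MIR7-1, MIR7-3 and MIR15B also fell. miR-7 represses EGFR and is usually counted as a tumor suppressor, and one of its copies lies in the transcript of HNRNPK. miR-15b, made from an intron of SMC4, belongs to the miR-15 and miR-16 family that holds back cyclins and BCL2. SMC4 itself is transcribed in dividing cells. Unlike miR-221 and miR-222, these miRNAs are usually placed on the side that slows growth.

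MIR7-1 (chr9:83969748-83969857) was at 528, 497 and 417 CPM in DMSO and 173, 211 and 270 CPM in dabrafenib, and MIR7-3 (chr19:4770670-4770779) at 438, 434 and 307 against 173, 180 and 229 CPM. Both had every treated library below every control. Because the copies make the same mature miR-7-5p, reads are divided between them, and their sum is the safer value: 966, 931 and 724 CPM in DMSO and 346, 391 and 499 CPM in dabrafenib. The sum fell by 1.09 on the log2 scale (SE 0.28, edgeR adjusted p = 0.0134), MIR7-1 by log2 -1.14 (edgeR adjusted p = 0.00702) and MIR7-3 by log2 -1.03 (edgeR adjusted p = 0.0295). Without DMSO replicate 1, MIR7-1 (0.0521) and MIR7-3 (0.112) missed the threshold, and so did MIR7-3 without DMSO replicate 2 (0.0930), dabrafenib replicate 1 (0.0625) or dabrafenib replicate 2 (0.113), by DESeq2's Wald test (0.0855) and with the replicate block (0.0598). In A375 the changes were -1.04 and -0.97 without passing the test (edgeR adjusted p = 0.132 and 0.190).

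MIR15B (chr3:160404588-160404685) stood at 634, 510 and 712 CPM in DMSO and 191, 256 and 384 CPM in dabrafenib. Again the groups were separate, and it fell 2.20-fold (log2 -1.14, SE 0.27, edgeR adjusted p = 0.00752; 0.0521 without DMSO replicate 1). It fell in A375 as well (log2 -1.42, edgeR adjusted p = 0.0351). Its neighbor MIR16-2 did not pass the test (log2 -0.30, edgeR adjusted p = 0.537). The miR-15 and miR-16 sum fell by 0.81 on the log2 scale (SE 0.26, edgeR adjusted p = 0.0234), with 1953, 1790 and 1582 CPM in DMSO and 907, 839 and 1287 CPM in dabrafenib. The family's call was lost with total counts (0.0808), with the library sizes of the precursor fit (0.126) and without DMSO replicate 1 (0.0716), DMSO replicate 2 (0.0518), dabrafenib replicate 1 (0.192) or dabrafenib replicate 2 (0.0947).

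The remaining precursors that fell are given next, and whether they share a pathway was not tested. MIR196A1 lies in the HOXB cluster and its product targets HOX genes, MIR24-2 is made with miR-23a and miR-27a and acts on cell cycle genes, and MIR584 has been described as a suppressor of motility. MIR296 is imprinted with GNAS and was described in angiogenesis. MIR744 lies within MAP2K4, MIR28 within LPP and MIR887 within FBXL7.

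MIR296 (chr20:58817615-58817694) was at 533, 699 and 642 CPM in DMSO and 373, 243 and 310 CPM in dabrafenib, and MIR584 (chr5:149062313-149062409) at 308, 282 and 256 against 137, 165 and 101 CPM. Neither showed overlap between treatments. They fell by 1.06 and 1.03 on the log2 scale (SE 0.24 and 0.28, edgeR adjusted p = 0.00702 and 0.0209). MIR584 fell in A375 too (log2 -1.27, edgeR adjusted p = 0.000989), whereas MIR296 did not pass there (log2 -0.15, edgeR adjusted p = 0.716), and the difference between the lines for MIR296 missed the threshold (-0.91, edgeR adjusted p = 0.190). MIR296 was lost without dabrafenib replicate 2 (0.0533), and MIR584 without DMSO replicate 1 (0.0805) or dabrafenib replicate 3 (0.0847) and by DESeq2's Wald test (0.0570).

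MIR196A1 (chr17:48632490-48632559) had 609, 616 and 564 CPM in DMSO against 341, 384 and 324 CPM in dabrafenib, and MIR24-2 (chr19:13836287-13836359) had 2556, 2676 and 2386 against 1597, 1589 and 1661 CPM. Both were separated, and they fell 1.69-fold and 1.57-fold (log2 -0.76 and -0.65, SE 0.24 and 0.19, edgeR adjusted p = 0.0369 and 0.0281). MIR196A1 was lost in edgeR without DMSO replicate 1 (adjusted p = 0.112), DMSO replicate 2 (0.0928), dabrafenib replicate 1 (0.0730), 2 (0.0667) or 3 (0.104), or A375 DMSO replicate 3 (0.0539), and with the replicate block (0.0802) and by DESeq2's Wald test (0.0729). MIR24-2 was lost with the replicate block (0.0567) and without DMSO replicate 1 (0.107), DMSO replicate 2 (0.0910), or dabrafenib replicate 1 (0.0601), 2 (0.0875) or 3 (0.0502). In A375, MIR196A1 fell further (log2 -1.81, edgeR adjusted p = 0.000873) and the difference between lines missed the threshold (1.05, edgeR adjusted p = 0.190). The second copy MIR196A2 and MIR196B did not pass in A375-BIR (log2 -0.51 and -0.34, edgeR adjusted p = 0.133 and 0.410). Summed, the 2 copies of miR-196a missed the threshold there as well (log2 -0.64, edgeR adjusted p = 0.0765).

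MIR744 was at 2373, 2290 and 2420 CPM in DMSO and 1830, 1489 and 1497 CPM in dabrafenib, MIR28 at 1321, 972 and 838 against 587, 722 and 667 CPM, and MIR887 at 525, 737 and 553 against 519, 316 and 303 CPM. The gap was clear for MIR744 and MIR28 and narrow for MIR887, whose highest treated library came within a few CPM of its lowest control. They fell by 0.56, 0.64 and 0.71 on the log2 scale (edgeR adjusted p = 0.0306, 0.0453 and 0.0451). MIR744 was lost without DMSO replicate 1 (0.112), DMSO replicate 2 (0.0790), or dabrafenib replicate 2 (0.120) or 3 (0.0733), or with the replicate block (0.0690). MIR28 and MIR887 were the least stable of the 13: edgeR's adjusted p went up to 0.302 for MIR28 without DMSO replicate 1 and to 0.185 for MIR887 in the fit of the 6 A375-BIR libraries alone (0.166 without dabrafenib replicate 2). MIR28 kept its call only without DMSO replicate 3 among the leave-outs, and MIR887 only without DMSO replicate 3 or dabrafenib replicate 1. MIR28 and MIR887 also missed the threshold with the replicate block (0.0836 and 0.0869) and by DESeq2's Wald test (0.0696 and 0.0891).

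MIR10B, MIR27B, MIR143 and MIR155 rose and are described first. miR-10b, from the HOXD cluster, promotes migration, and miR-27b is made with miR-23b and miR-24 from AOPEP. miR-143 is a marker of smooth muscle and fibroblasts. miR-155 is induced by inflammatory and NF-kB signaling and represses MITF. All 4 were detected in A375-BIR without the drug.

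MIR10B (ENSG00000207744.1, chr2:176150303-176150412) stood at 1631, 1545 and 1680 CPM in DMSO and 2868, 3114 and 3014 CPM in dabrafenib. The treated libraries were all high and close to each other, and the level rose 1.85-fold (log2 0.89, SE 0.19, edgeR adjusted p = 0.00387). It passed with each library left out and missed only without a filter on low counts (edgeR adjusted p = 0.0674, range over its alternatives 0.000231 to 0.0674). In A375 it rose by 1.5 (edgeR adjusted p = 2.87e-05). MIR143 (ENSG00000284182.1, chr5:149428918-149429023) was at 199, 243 and 207 CPM in DMSO and 546, 662 and 1052 CPM in dabrafenib. It rose 3.48-fold (log2 1.80, SE 0.41, edgeR adjusted p = 0.00661) with a wide gap between the groups, and in A375 it did not pass (log2 0.83, edgeR adjusted p = 0.190; difference between the lines 0.96, edgeR adjusted p = 0.424).

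MIR27B (chr9:95085445-95085541) had 2238, 2452 and 2738 CPM in DMSO and 3988, 2873 and 5330 CPM in dabrafenib. Its groups came close without overlap, and it rose 1.64-fold (log2 0.71, SE 0.22, edgeR adjusted p = 0.0352). The call was lost without DMSO replicate 1 (0.0926), DMSO replicate 2 (0.0928), dabrafenib replicate 1 (0.0601) or 3 (0.163), or A375 DMSO replicate 1 (0.0515), and also with the CPM filter (log2 0.49, 0.149), without a filter (log2 0.47, 0.299), by DESeq2's Wald test (0.0570) and in the 6 A375-BIR libraries alone (0.0870). MIR155 (chr21:25573980-25574044) was at 45.3, 125 and 83.0 CPM in DMSO and 27.3, 346 and 324 CPM in dabrafenib. Replicate 1 in dabrafenib was the lowest of the 6 libraries and the remaining treated libraries the highest, so the groups overlapped although the test passed (log2 1.54, SE 0.49, edgeR adjusted p = 0.0395). It was lost without DMSO replicate 1 (0.100) or 3 (0.0646), dabrafenib replicate 2 (0.209) or 3 (0.148), or any of 4 A375 libraries: DMSO replicate 1 (0.0546) or 2 (0.0561), dabrafenib replicate 2 (0.0521) or 3 (0.0553). In the 6 A375-BIR libraries alone it missed the threshold as well (0.185).

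A further 5 precursors that rose lie within longer host RNAs. MIR612 overlaps an exon of the nuclear RNA NEAT1, MIR4449 an exon of DANCR, and MIR3652 an exon of the chaperone gene HSP90B1. MIR1291 lies in KANSL2 on the small nucleolar RNA SNORA2C, and MIR3654 in an intron of CHCHD3. Counts of such entries can include fragments of the host or of the nucleolar RNA. The deposited counts do not separate those from a mature miRNA.

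MIR3652 (chr12:103930425-103930555) stood at 118, 107 and 168 CPM in DMSO and 1091, 568 and 718 CPM in dabrafenib, MIR612 (chr11:65444458-65444557) at 214, 157 and 236 against 767, 743 and 574 CPM, and MIR4449 (chr4:52712682-52712747) at 344, 498 and 827 against 1972, 1782 and 1509 CPM. In each case the lowest treated library was well above the highest control. They rose 5.82-fold, 3.36-fold and 3.11-fold (log2 2.54, 1.75 and 1.64, edgeR adjusted p = 2.76e-05, 0.00069 and 0.000559). All 3 also rose in A375, by log2 1.55, 2.89 and 2.26 (edgeR adjusted p = 0.000989, 1.48e-06 and 2.87e-05).

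MIR1291 (chr12:48654444-48654530) was at 510, 695 and 1193 CPM in DMSO and 1577, 2256 and 1286 CPM in dabrafenib, and MIR3654 at 86.7, 72.3 and 230 against 462, 328 and 248 CPM. In both, DMSO replicate 3 came close to the lowest treated library. They rose by 1.10 and 1.35 (SE 0.30 and 0.45, edgeR adjusted p = 0.0209 and 0.0462). MIR1291 was lost without DMSO replicate 1 (0.0521), DMSO replicate 2 (0.0826) or dabrafenib replicate 2 (0.113) and in the 6 A375-BIR libraries alone (0.0724). MIR3654 was lost in most alternatives, its adjusted p ranging from 0.00357 to 0.140, the latter without DMSO replicate 2. Its log2 change ranged from 1.05 to 2.01 with a library left out. MIR3654 reached the minimum of the filter in 1 DMSO and 3 dabrafenib libraries of A375-BIR and in 0 of A375. It thus entered the fit only with the help of treated libraries, which could admit a rise more readily than a fall. Among 6 tested precursors that overlap small nucleolar RNAs, 1 passed, MIR1291, beside 36 of all 175, and their median was -0.20.

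Another 5 precursors rose from very few counts: MIR4657 (1, 2 and 1 in DMSO, 15, 5 and 1 in dabrafenib), MIR4647 (4, 1 and 1 against 13, 8 and 3), MIR1225 (1, 3 and 4 against 13, 11 and 4), MIR150 (3, 2 and 1 against 6, 11 and 2) and MIR632 (2, 3 and 1 against 7, 5 and 3). The filter needs 10 counts in a library of median size (146 CPM on library totals) in at least 3 of the 12 libraries, and no DMSO library of either line reached that for these 5, so they entered through dabrafenib libraries alone. Scarce precursors with the opposite pattern, such as MIR15A (5, 7 and 10 against 0, 0 and 0 counts), were not tested, and fits with the looser filters gave 25 higher and 28 lower (CPM filter) and 20 and 17 (no filter). On the CPM scale every treated library was above every control for all 5, although in counts some libraries of the groups tied or crossed. The log2 changes were 3.63, 3.25, 3.10, 2.85 and 2.56, with standard errors from 0.67 to 1.06 and edgeR adjusted p of 0.0281, 0.0161, 0.00529, 0.0281 and 0.0209. MIR4657 missed the threshold without DMSO replicate 1 (0.0641), 2 (0.0598) or 3 (0.0512) and without dabrafenib replicate 1 (0.206, log2 2.14), and in the 6 A375-BIR libraries alone (0.0709). MIR4647 was lost without DMSO replicate 2 (0.0598) or dabrafenib replicate 1 (0.0601), MIR632 without dabrafenib replicate 1 (0.0614) or without a filter (0.0544), and MIR150 with the replicate block (0.0511) and without DMSO replicate 2 (0.0836) or 3 (0.0541) or dabrafenib replicate 1 (0.0512) or 2 (0.153). With a library left out, the log2 change ranged from 2.46 to 4.27 for MIR4647 and from 2.14 to 4.16 for MIR4657. The ranges were 2.53 to 3.46 for MIR1225, 2.42 to 3.37 for MIR150 and 2.03 to 2.92 for MIR632. MIR150, a MYC-repressed miRNA of lymphocytes, was the only member of 24 MYC-repressed miRNAs that passed among 19 tested, beside 36 of all 175, and the median of that list was -0.11.

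Families and clusters share seeds or transcripts, so that summing them shows whether a response extends beyond 1 precursor. The families of most interest here are miR-204 and miR-211, which follows MITF in melanocytes, the miR-506 to miR-514 cluster of the X chromosome, which marks melanoma, and miR-146, a target of NF-kB. The let-7 family held from 47.8% to 59.8% of the counts in each library. In the family fit, 47 of 116 entries passed edgeR's test (40.5%), 22 higher and 25 lower, with 23 higher and 9 lower under total counts. Of 23 families, 7 passed, 2 higher and 5 lower, against 3 higher and 1 lower both under total counts and with the library sizes of the precursor fit.

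Besides miR-221 and miR-222 and miR-15 and miR-16, the miR-196, miR-183 cluster and miR-320 sums passed as lower. For miR-320 only 1 of the 3 members tested singly had a negative log2 change, with a range of -0.26 to 0.25 and a median of 0.15, so its sum did not show a shared response. The miR-183 cluster had 2 members tested singly, with log2 changes of -0.25 and -0.06. Neither passed, and both changes were smaller than that of the sum given below. miR-196 had 2344, 2398 and 1485 CPM in DMSO and 1179, 1180 and 1152 CPM in dabrafenib, miR-183 cluster had 12077, 9467 and 8845 against 7461, 7525 and 6145 CPM, and miR-320 had 24967, 22852 and 17671 against 14922, 15600 and 14728 CPM. None overlapped on this scale, whereas with the library sizes of the precursor fit the miR-183 cluster did (10084, 8297 and 10089 against 8991, 8634 and 6477 CPM). The log2 changes were -0.82, -0.52 and -0.53 (edgeR adjusted p = 0.0208, 0.0208 and 0.0234). With the library sizes of the precursor fit they were -0.53, -0.24 and -0.25 and no longer passed (edgeR adjusted p = 0.0983, 0.292 and 0.214; ranges over the alternatives 0.00207 to 0.0983, 0.00805 to 0.292 and 0.00362 to 0.214). The direction did not change under any of the scalings, and miR-221 and miR-222 was the single lower family that kept its call under all of them. Leaving out DMSO replicate 1, edgeR's adjusted p was 0.0681 for miR-196, 0.0962 for miR-183 cluster and 0.0962 for miR-320, and without dabrafenib replicate 1 it was 0.0836, 0.118 and 0.196. Without DMSO replicate 2 or dabrafenib replicate 2, miR-196 (0.0684, 0.0546) and miR-320 (0.0716, 0.0546) were lost, and without dabrafenib replicate 3 so were miR-183 cluster (0.0562) and miR-320 (0.0562).

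miR-204 and miR-211 stood at 206, 143 and 145 CPM in DMSO and 272, 210 and 538 CPM in dabrafenib. MIR211 gave only 1, 3 and 4 counts of this in DMSO and 3, 4 and 4 in dabrafenib. The treated libraries were higher by a small margin except replicate 3, which was far above, and the sum rose 2.04-fold (log2 1.03, SE 0.37, edgeR adjusted p = 0.0393). It was lost without DMSO replicate 2 (0.105) or 3 (0.0849), dabrafenib replicate 3 (0.250) or A375 DMSO replicate 2 (0.0513), without rRNA-like sequences (0.0591) and with the replicate block (0.0592). MIR204 alone did not pass (163, 102 and 138 CPM in DMSO, 246, 180 and 485 CPM in dabrafenib, log2 1.16, SE 0.41, edgeR adjusted p = 0.0632), except with the CPM filter (0.0434) or without dabrafenib replicate 2 (0.0330), A375 dabrafenib replicate 2 (0.0468) or A375 dabrafenib replicate 3 (0.0456). The miR-506 to miR-514 sum was at 54.3, 71.6 and 24.2 CPM in DMSO and 181, 65.5 and 134 CPM in dabrafenib. Its groups overlapped on this scale, though not with the library sizes of the precursor fit, the counts are few, and it passed as higher (log2 1.31, SE 0.45, edgeR adjusted p = 0.0368), but not without DMSO replicate 1 (0.0601) or 3 (0.142) or dabrafenib replicate 1 (0.114) or 3 (0.0829), nor with the replicate block (0.0592), which left 0 families higher and 5 lower. The 5 tested melanocytic precursors had log2 changes from 0.56 to 1.77 with a median of 1.71, and none passed on its own (79 of all 175 were positive and 62 of all 175 had an unadjusted p under 0.05). Of these 5, 3 are the copies of miR-509, which divide the same few reads, so that they count as a single signal and the median is that of a copy.

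**Figure D3:**
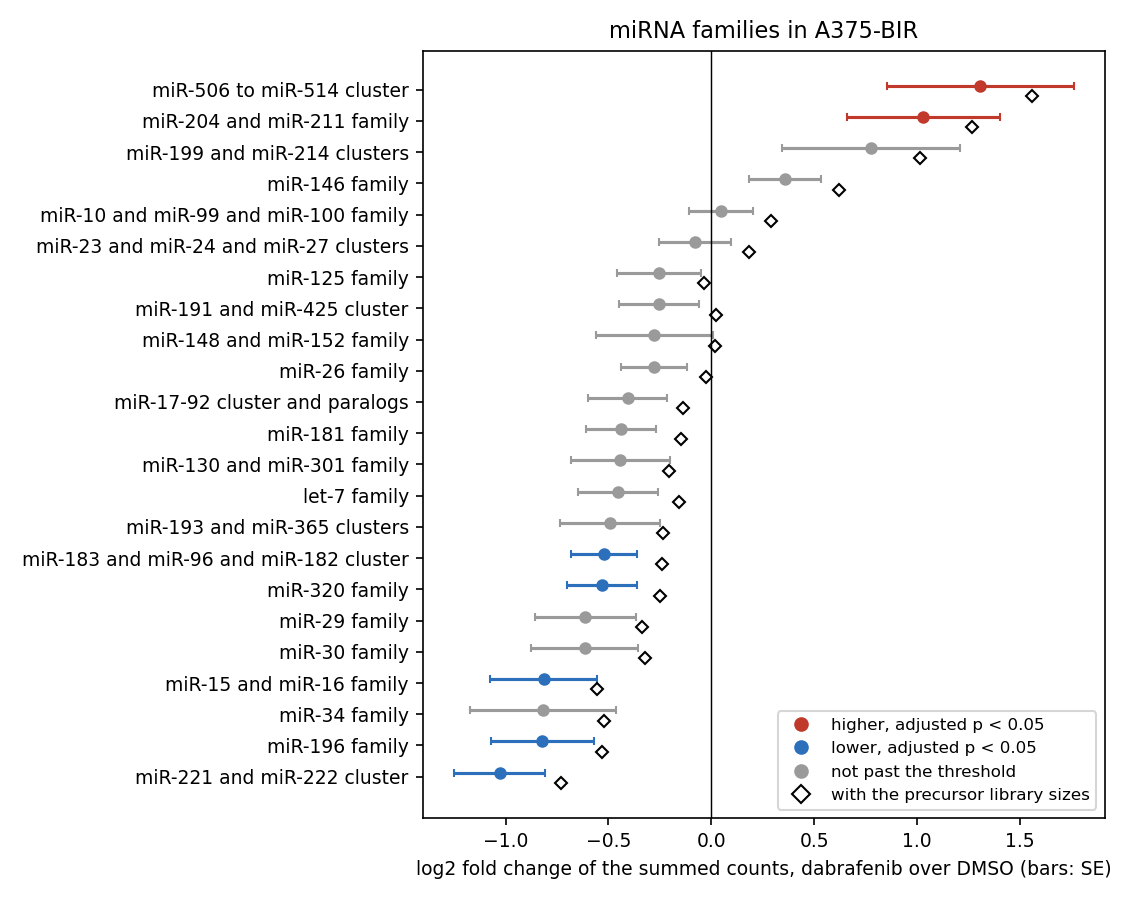
Log2 fold change of the 23 family sums in A375-BIR, with the scaling of the family fit and with the library sizes of the precursor fit. miR-15 and miR-16, miR-196, miR-183 cluster and miR-320 passed with the first only.

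The 5 precursors with the most counts did not pass the test. The let-7 precursors MIRLET7A1, MIRLET7A2, MIRLET7A3, MIRLET7B and MIRLET7I are those 5, and let-7 acts against MYC. MIRLET7A1 was at 95229, 92459 and 84384 CPM in DMSO and 78321, 78826 and 73837 CPM in dabrafenib (log2 -0.24, edgeR adjusted p = 0.133), with every treated library below every control. The let-7 sum passed only without DMSO replicate 3 (log2 -0.67, edgeR adjusted p = 0.00065), against -0.45 (0.0689) with all libraries, -0.16 (0.262) with the library sizes of the precursor fit and -0.18 (0.0542) with total counts. MIR21, an oncogenic miRNA of the MAPK route, stood at 16650, 16250 and 12299 against 12864, 12605 and 11691 CPM and did not pass (log2 -0.28, edgeR adjusted p = 0.253). A p above the threshold does not show that levels were equal.

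A list of 12 precursors was drawn from the miRNAs that the running text of the paper discusses, without those found only in its table of line differences. Of these 9 were tested in A375-BIR and none passed on its own by edgeR, beside 36 of all 175, with a median of 0.22. MIR181A1 and MIR181A2 had log2 changes of -0.27 and -0.29 (edgeR adjusted p = 0.236 and 0.203), MIR181B1 and MIR181B2 0.21 and 0.22 (edgeR adjusted p = 0.278 and 0.241), and MIR424 -0.04 (edgeR adjusted p = 0.975). MIR181B1 and MIR181B2 turned slightly negative with the looser filters on low counts. The miR-181 family sum had log2 -0.44 (edgeR adjusted p = 0.0530) without overlap of the groups. It passed as lower only without DMSO replicate 3 (edgeR adjusted p = 0.00481). With the library sizes of the precursor fit its groups overlapped (log2 -0.15, edgeR adjusted p = 0.407). MIR509-1, MIR509-2 and MIR509-3 were at 1.77, 1.77 and 1.71 (edgeR adjusted p = 0.122, 0.122 and 0.108), and their sum passed (log2 1.55, edgeR adjusted p = 0.0184). MIR126 (5, 4 and 9 counts in DMSO, 2, 0 and 0 in dabrafenib), MIR224 (2, 12 and 20 against 4, 8 and 4) and MIR503 (8, 12 and 8 against 3, 3 and 2) were too scarce to be tested. Among 10 p53-responsive miRNAs, 7 had a count, 3 were tested and MIR143 alone passed, beside 36 of all 175, the median being 0.20, while MIR34A did not pass (log2 -0.52, edgeR adjusted p = 0.241) and MIR34B, MIR34C and MIR215 were at 0.

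Some listed precursors resemble ribosomal RNA, and they are treated apart because reads of rRNA fragments can be counted on them. rRNA is made by RNA polymerase I as a 45S precursor whose external spacers are removed and degraded during ribosome assembly. Growth signaling through ERK controls that synthesis. A row counted here shares at least 18 bases in sequence with the 45S precursor, which 17 of the listed precursors do: 8 with the 5' external spacer, 7 with 28S and 2 with the 3' external spacer. Capitals mark the shared run, and ENSG00000277437 (chr21:8208844-8208904) lies within the 45S gene itself.
ENSG00000275110: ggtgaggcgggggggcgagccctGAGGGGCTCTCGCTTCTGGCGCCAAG
ENSG00000277437: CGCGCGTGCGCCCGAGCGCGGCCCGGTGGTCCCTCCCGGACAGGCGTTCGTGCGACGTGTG
MIR663A: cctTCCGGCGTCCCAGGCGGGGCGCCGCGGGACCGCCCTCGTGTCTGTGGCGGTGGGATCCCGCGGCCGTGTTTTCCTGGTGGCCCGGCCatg

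Together these sequences held 2.65% (95% interval 2.55 to 2.75), 2.67% (2.58 to 2.76) and 4.57% (4.46 to 4.69) of the counts in DMSO and 16.9% (16.5 to 17.3), 14.4% (14.1 to 14.7) and 16.7% (16.4 to 17.0) in dabrafenib. The intervals are Wilson's and cover counting error only. Each treated library was far above each control, and the mean went from 3.30 ± 1.11% to 16 ± 1.41% (SD, n = 3 libraries each), a difference of 12.7 percentage points or 4.86-fold, with an exact two-sided permutation p of 0.1, the smallest that 3 against 3 libraries can give. In counts the range was 2820 to 5615 in DMSO and 5934 to 8613 in dabrafenib, while all other counts were 2.82 times fewer in the treated libraries. The authors removed reads of rRNA before counting, so these shares describe what remained. A larger share of rRNA fragments, lower amounts of miRNA or a difference in library preparation were not told apart.

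**Figure D4:**
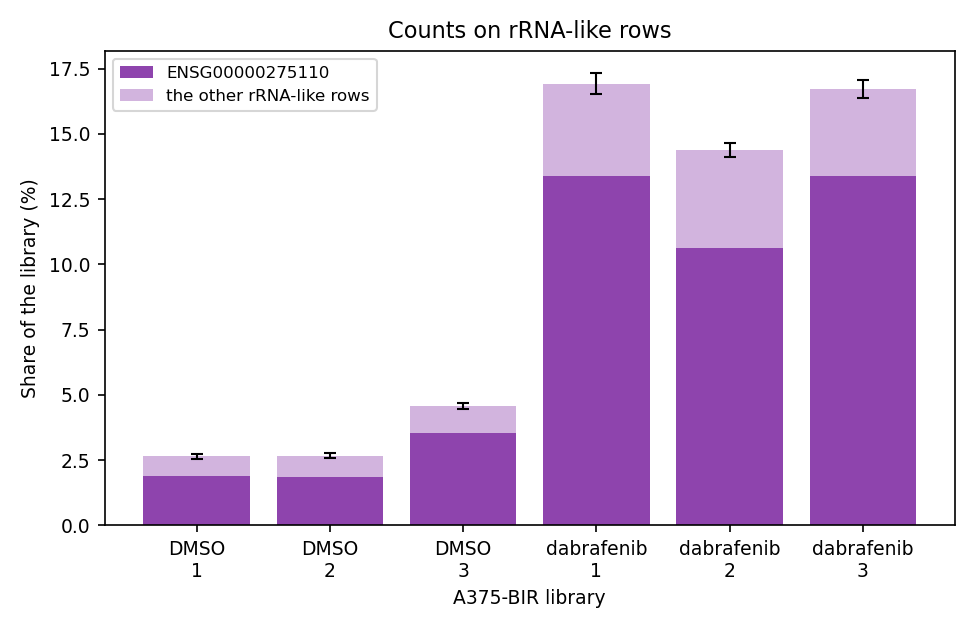
Share of each A375-BIR library held by rRNA-like sequences, with 95% Wilson intervals that cover counting error only. Every treated library was above every control.

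Of 10 rRNA-like precursors tested, 9 rose and none fell, beside 23 higher and 13 lower of all 175. Of the 9, 3 passed the filter through dabrafenib libraries alone, which could admit a rise and not a fall. ENSG00000275110 (chrX:109054542-109054590), which shares 26 of its 49 bases with 28S, was at 18083, 17525 and 30108 CPM in DMSO and 128155, 95790 and 128893 CPM in dabrafenib. Alone it made up 1.88%, 1.85% and 3.55% of the control libraries and 13.4%, 10.6% and 13.4% of the treated ones, with log2 2.42 (SE 0.28, edgeR adjusted p = 2.76e-05). MIR663A (ENSG00000284419.1, chr20:26208186-26208278, 87 of 93 bases shared) stood at 465, 481 and 628 against 4668, 4178 and 3508 CPM and rose 7.81-fold (log2 2.97, SE 0.21, edgeR adjusted p = 2.48e-07). ENSG00000277437 and ENSG00000264063, identical over 61 bases, divide their reads, and the former was at 2739, 2743 and 3075 against 11728, 12449 and 10947 CPM (log2 2.04, SE 0.16, edgeR adjusted p = 3.93e-07).

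MIR3648-1 and MIR3648-2, also copies, had 655, 766 and 703 against 2102, 1928 and 2825 CPM for the first (log2 1.69, edgeR adjusted p = 6.39e-05 for each). MIR663B, MIR4508 and MIR7704 rose by 2.68, 2.38 and 1.44 (edgeR adjusted p = 0.000726, 0.00253 and 0.0278) without overlap of the groups, but no DMSO library of either line reached the minimum of the filter for these 3, so they too were tested through dabrafenib libraries alone. MIR7704 was lost without DMSO replicate 1 (0.0547) or 2 (0.0915) or dabrafenib replicate 1 (0.0534) or 3 (0.0653), and also with the CPM filter (0.117), without a filter (0.214), by DESeq2's Wald test (0.0679) and with the replicate block (0.0567). The one that did not pass, ENSG00000283704, had 45.5, 43.5 and 279 CPM in DMSO and 537, 174 and 230 CPM in dabrafenib (log2 1.19, edgeR adjusted p = 0.203), and it passed without DMSO replicate 3 (log2 2.57, edgeR adjusted p = 0.00594). Removing all of them before scaling changed no log2 value of the 27 other precursors that passed by more than 0.018, and only MIR28 lost its call (edgeR adjusted p = 0.0660, range over its alternatives 0.0164 to 0.302).

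A resistant line can keep, lose or reverse the responses of its parent. The parental line was treated at the same dose and time, and it is the sensitive line of the study. In A375 the same test called 44 of 175 precursors (25.1%), 32 higher and 12 lower, while total counts in place of TMM gave 18 and 44 and moved the A375 median from 0.14 to -0.36. For the difference between lines that shift was 0.47 (median -0.17 with TMM, 0.30 with total counts). Of the 36 that passed in A375-BIR, 21 also passed in A375 in the same direction and none in the opposite one. Without rRNA-like sequences, 13 of the 14 that rose and 11 of the 13 that fell had the same sign in A375, 6 of each passing there. Of those that rose, MIR4657, MIR4647, MIR1225, MIR150 and MIR632 entered through dabrafenib libraries alone, those of A375 included. The same holds for the rRNA-like MIR663B, MIR4508 and MIR7704. For these the filter could admit a shared rise and not a shared fall, so their agreement between the lines carries no weight. Depth and rRNA-like share moved with treatment in A375 too. Its totals were 77264, 121802 and 86898 counts in DMSO and 47507, 51532 and 36955 in dabrafenib. The rRNA-like share was 3.49%, 3.22% and 5.59% against 21.2%, 26.3% and 20.9%. Their part in the agreement was not tested, and the share of same signs over all tested precursors is not given here. For none of the 27 did the difference between the lines pass the test, the lowest edgeR adjusted p being 0.190, whereas 34 of all 175 had an unadjusted p under 0.05 for that difference. Under some alternatives a difference passed for MIR155 and MIR196A1. For MIR155 it was 1.82 with the CPM filter (edgeR adjusted p = 0.00626), 1.77 without a filter (0.0198), 1.74 by DESeq2's Wald test (0.0481) and 2.00 without A375-BIR dabrafenib replicate 1 (0.0212), and for MIR196A1 it was 1.53 with total counts (0.0499) and 1.65 with the copies of miR-196a summed (0.0488).

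**Figure D5:**
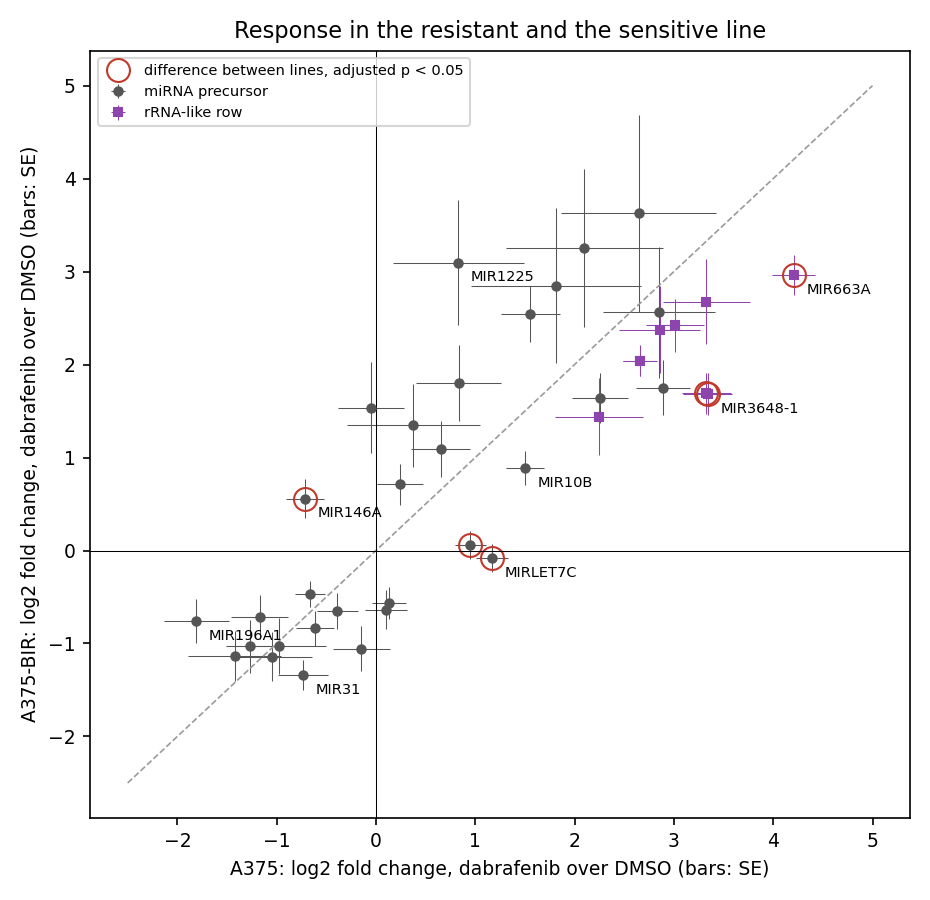
Dabrafenib response in A375 and in A375-BIR for the precursors that passed edgeR's test in A375-BIR or in the difference between the lines, with standard errors. Circles mark those whose difference between the lines passed.

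The difference between the lines passed for 6 precursors (3.43%), 1 higher and 5 lower in A375-BIR, against 5 and 3 with total counts. MIR146A, an NF-kB target that dampens inflammatory signaling, was at 906, 1020 and 1425 CPM in DMSO and 1557, 1399 and 2002 CPM in dabrafenib in A375-BIR, with a slight overlap (log2 0.56, SE 0.21, edgeR adjusted p = 0.0746; 0.0363 without DMSO replicate 3 and 0.0475 without A375 dabrafenib replicate 1). In A375 it stood far higher, at 24741, 22209 and 25938 CPM, and fell to 11812, 15941 and 16748 CPM (log2 -0.71, edgeR adjusted p = 0.0149). The responses differed by 1.27 (SE 0.29, edgeR adjusted p = 0.0226). This passed under every scaling and filter, but not without A375-BIR DMSO replicate 1 (0.0590) or 2 (0.0734), A375-BIR dabrafenib replicate 3 (0.0625), A375 DMSO replicate 1 (0.0593) or 3 (0.0609), or A375 dabrafenib replicate 1 (0.0521) or 2 (0.0512). MIR146B had 2559, 1588 and 2493 against 4315, 3204 and 2872 CPM in A375-BIR and did not pass (log2 0.64, edgeR adjusted p = 0.0929; 0.0493 without DMSO replicate 3). For the miR-146 sum the difference was 1.18 (edgeR adjusted p = 0.00937), and its response in A375-BIR, 0.36 (0.113), passed with total counts (0.58, edgeR adjusted p = 0.0439), size factors (0.47, 0.0356) and the library sizes of the precursor fit (0.62, 0.0235).

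MIRLET7C and MIRLET7B passed in A375 and not in resistant cells, while the sum of the let-7 family passed neither in A375 (log2 0.13, edgeR adjusted p = 0.692) nor in the difference between the lines (-0.59, edgeR adjusted p = 0.243). MIRLET7C was at 15162, 14989 and 11208 CPM in DMSO and 13039, 13158 and 12975 CPM in dabrafenib in A375-BIR, with overlap (log2 -0.08, edgeR adjusted p = 0.787). In A375 it rose from 2723, 2858 and 2609 to 5465, 6986 and 5900 CPM (log2 1.17, edgeR adjusted p = 6.05e-05), and the responses differed by -1.25 (SE 0.22, edgeR adjusted p = 0.0104), a call made with every library left out. MIRLET7B stood at 128454, 130477 and 87040 against 115358, 109959 and 134324 CPM in A375-BIR (log2 0.06, edgeR adjusted p = 0.855), a sign that turned with size factors (-0.03). In A375 it rose by 0.95 (edgeR adjusted p = 0.000289). Its difference of -0.89 (edgeR adjusted p = 0.0281) was lost with size factors (0.172), total counts (0.188), the CPM filter (0.312), no filter (0.144), DESeq2's Wald test (0.237), summed copies (0.236) and without rRNA-like sequences (0.230), and over its alternatives adjusted p ranged from 0.0199 to 0.315, the highest without A375-BIR DMSO replicate 1. It also failed without DMSO replicate 2 (0.0947) or dabrafenib replicate 1 (0.0886) or 2 (0.101) of A375-BIR, and without A375 DMSO replicate 1 (0.0926) or 3 (0.0658) or A375 dabrafenib replicate 1 (0.0863), 2 (0.122) or 3 (0.0723). With total counts the difference shrank to -0.41 for MIRLET7B, and the weakest value over the alternatives for MIRLET7C was -0.76.

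The remaining precursors with a difference between the lines are rRNA-like: MIR663A rose by 2.97 in A375-BIR and by 4.21 in A375 (difference -1.24, edgeR adjusted p = 0.0226), and MIR3648-1 and MIR3648-2 by 1.69 against 3.34 and 3.32 (differences -1.65 and -1.64, edgeR adjusted p = 0.011 for each). MIR663A's difference was lost with the CPM filter (0.0624), summed copies (0.130) and total counts (0.162; range over its alternatives 0.00389 to 0.162) and without A375-BIR dabrafenib replicate 2 (0.0578) or 3 (0.0593), A375 DMSO replicate 1 (0.0589) or 2 (0.0679), or A375 dabrafenib replicate 1 (0.0521) or 2 (0.0762). The resistant line shared the direction of these sequences with its parent, at a smaller size by these estimates. With total counts the difference for MIR663A shrank to -0.77. For MIR3648-1 and MIR3648-2 the difference passed in each of their alternatives, at its smallest -1.17 and -1.15.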

How the data were processed

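Small RNA of A375-BIR and A375 was measured in 12 libraries, 3 for each line and treatment (0.1% DMSO or 200 nM dabrafenib for 48 h). The authors deposited RSEM 1.2.25 expected counts per miRNA precursor on hg38, without normalization, after removing rRNA reads. The annotation release behind them is not stated. These values were rounded before testing. Between 68.5% and 81.9% of the counts in each A375-BIR library lay in entries with a fractional value. Names and coordinates came from GENCODE v44 and mature sequences from RefSeq.

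The fit used R 4.3.3 and edgeR 4.0.16: filterByExpr over 4 groups (175 precursors kept), TMM, a single model of 12 libraries with a coefficient for each group, the quasi-likelihood test with adjustment by Benjamini and Hochberg, threshold 0.05 (biological coefficient of variation 21.6%). All p-values printed as adjusted p come from this test unless another is named. The comparisons were dabrafenib against DMSO in A375-BIR, the same in A375, and the difference between those responses. Standard errors were back-calculated from each F statistic. Library totals, from 35070 to 122792 counts in A375-BIR, make 3 counts equal to 20.7 to 81.9 CPM after TMM. Families were summed and fitted with the precursors of no family (116 entries).

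Members and gene lists were chosen with earlier results of these data known. Precursors were named by rule: up to 12 per direction among those past the threshold, the 5 with the most counts, those in the running text of the paper, those past the threshold in the difference, and the members of the lists that the text discusses; the remaining 3 that passed were added. The lists are MAPK and MYC driven, MYC repressed, p53 responsive, melanocytic lineage and miRNAs of the paper's running text, and markers of blood, muscle, liver, epithelium, endothelium, neural cells, and smooth muscle and fibroblasts. rRNA-like means a shared run of 18 or more bases with the 45S precursor (chr21:8205988-8219302); runs of 16 and 20 were also tried.

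Alternatives were a filter of 1 CPM in 3 libraries (538 precursors), no filter (839), DESeq2 1.42.0 size factors, total counts, DESeq2's Wald test, the 6 libraries of one line alone, replicate number as a block, removal of rRNA-like sequences (167 tested), summed copies (154 entries) and each library left out. The library sizes of the precursor fit for family sums were added after the data were seen. The code was tested on simulated data. Shares were compared by exact permutation of 3 against 3 libraries. Python 3.11.15, pandas 2.3.3, scipy 1.17.1 and matplotlib 3.10.9 prepared tables and figures. No library was left out, and the paper's target, pathway and functional work was not analysed.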

Additional observations from a re-analysis of the deposited data

Results flagged for a closer look

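The 7 values here are differences between the dabrafenib responses of A375-BIR and A375 (A375-BIR minus A375, log2) that passed edgeR's test of the interaction contrast. MIR146A differed by 1.27. MIRLET7C differed by -1.25 (weakest alternative -0.76). MIRLET7B differed by -0.89 (-0.41 with total counts, call lost in 16 of 20 alternatives). MIR663A differed by -1.24 (-0.77 with total counts, where the call was lost). MIR3648-1 differed by -1.65. MIR3648-2 differed by -1.64. The sum of the miR-146 family differed by 1.18.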

How the results depend on the processing

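In A375-BIR, the 23 precursors called higher became 15 without rRNA-like sequences, where 9 of the 23 are removed by construction, and 16 to 29 with a library left out. The 13 called lower became 28 with the CPM filter, 20 with DESeq2 size factors, 8 with DESeq2's Wald test, 1 with only the libraries compared, and with a library left out 2 (DMSO replicate 1), 6 (DMSO replicate 2), 5 (dabrafenib replicate 2), 7 (dabrafenib replicate 3) and up to 17. In A375, the 32 called higher became 19 with the CPM filter, 20 without a filter, 18 with total counts, 21 with the Wald test and 18 with copies summed, and the 12 called lower became 34, 27, 44 with total counts, 23 with size factors, 28 with only the libraries compared, 28 with copies summed, and 7 (without A375 DMSO replicate 1) to 14 with a library left out. The 6 differences between lines became 2 without rRNA-like sequences and 3 without A375 DMSO replicate 1, A375 dabrafenib replicate 1 or A375 dabrafenib replicate 2. The 7 families became 4 with total counts, 4 with the library sizes of the precursor fit (chosen after the data were seen), 2 without DMSO replicate 1, 3 without DMSO replicate 2, 12 without DMSO replicate 3, 3 without dabrafenib replicate 1 and 4 without dabrafenib replicate 2. With replicate number as a block, 20 were higher and 6 lower in A375-BIR, and the residuals of same-numbered libraries showed no sign of pairing, which the labels do not settle: their correlations were -0.32, 0.00584 and -0.54, and DMSO replicates 1 and 2 correlated best with dabrafenib replicate 3 and DMSO replicate 3 with dabrafenib replicate 1. Directions turned only for small values that did not pass: MIR181B1 (0.21) was -0.016 with the CPM filter and -0.029 without a filter, MIR181B2 (0.22) was -0.0081 and -0.020, MIR424 (-0.04) was 0.036 with only the libraries compared and ranged from -0.26 to 0.16 with a library left out, MIRLET7B (0.06) was -0.18 with the CPM filter, -0.18 without a filter, -0.030 with size factors, -0.030 with the Wald test and ranged from -0.13 to 0.22 with a library left out, and MIRLET7C (-0.08) ranged from -0.24 to 0.072. The causes of these shifts were not tested.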
